A study of Mus musculus with 18 samples.

Results

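The comparison described here was of thyroid tissue from mice that received 1.4 Gy with thyroid tissue from mice that received 0.5 Gy, both from astatine-211, an alpha particle emitter and a halogen that the thyroid takes up. It used 6 of the 18 arrays of the study, the 3 labelled 1.4 Gy and the 3 labelled 0.5 Gy, without the unirradiated arrays as a reference. The animals of every group were 6-month-old females of the BALB/c nude strain, which lacks a thymus and mature T cells. The activity, 1.8 kBq for 1.4 Gy and 0.64 kBq for 0.5 Gy, was injected as free 211At into a tail vein, and thyroids were taken after 24 h. In all, 21 mice were divided into 6 dose groups, the thyroids of a group were pooled, and the RNA of each pool was run on 3 MouseRef-8 BeadChip arrays. The 3 arrays of a dose are therefore repeat measurements of 1 RNA pool, and each p-value below measures the spread between arrays and not the spread between animals.

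Astatine decays by emitting alpha particles of short range, so that dose is deposited in dense tracks within a few cells of the nuclide. Thyroid follicles synthesise hormone from thyroglobulin, which is iodinated by thyroid peroxidase, and the iodide pump, the TSH receptor and the transcription factors Pax8, Nkx2-1 and Foxe1 define the cells that do so. Several other tissues also mark themselves strongly in RNA. Salivary glands make kallikreins, growth factors and saliva proteins in serous, mucous and duct cells, brown fat burns fatty acids through uncoupling protein, and skeletal muscle is known by its myosins and troponins.

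The array values are log2 signals, quantile-normalized here over all 18 arrays together, and on this scale the signals ran from 6.24 to 15.08. A probe counted as detected on an array when its deposited detection p-value was under 0.01. Of 25697 probes, 10634 were detected on all 3 arrays of either dose, and 8822 of these on all 6 arrays. The 6 arrays detected between 10235 and 10995 probes each, and arrays of one dose correlated at 0.9939 or more over the probes.

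The defining markers of the labelled tissue were mostly absent. Thyroglobulin (Tg), the iodide pump Slc5a5, Pax8, Nkx2-1 and Foxe1 were detected on 0 of 18 arrays by any of their probes, and thyroid peroxidase has no probe named in the annotation used. The TSH receptor, Tshr, gave 6.96, 7.04 and 6.98 at 1.4 Gy and 6.86, 6.84 and 7.01 at 0.5 Gy, close to background. Of the 14 follicular cell genes with a probe, 3 were kept. Only Slc5a8, a carrier of monocarboxylates across epithelia, was called among them, with 6.98, 6.99 and 6.93 at 1.4 Gy against 9.87, 9.62 and 9.73 at 0.5 Gy. Markers of parathyroid, C cells, T cells and B cells had 0 members kept, so the tests made no comparison of them. In contrast, the defining markers of muscle (Ckm, Acta1, Mylpf), brown fat (Ucp1, Cidea), fat (Adipoq, Lep), red cells (Hba-a1, Alas2) and endothelium (Pecam1, Cdh5) were detected on all 18 arrays. For macrophages, neither defining gene has a probe named. In pooled tissue, a lower signal can come from fewer cells of a type or from less RNA per cell, and these cannot be told apart.

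Between 1.4 and 0.5 Gy, 2470 of the 10634 kept probes (23.2%) differed at a Benjamini-Hochberg adjusted p-value under 0.01 in limma and at least 1.5-fold. Of these, 1287 were higher at 1.4 Gy (12.1% of kept probes) and 1183 were lower (11.1%). The median log2 difference, 1.4 Gy minus 0.5 Gy, over all kept probes was 0.04. The lower side held the steeper differences. A total of 159 probes were lower by at least 4-fold and 25 by at least 16-fold, against 16 and 0 probes on the higher side. The arrays of the 2 doses did not overlap for any called probe, but they also did not overlap for 69.5% of all kept probes, so separation of the arrays alone sets no gene apart.

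**Figure D1:**
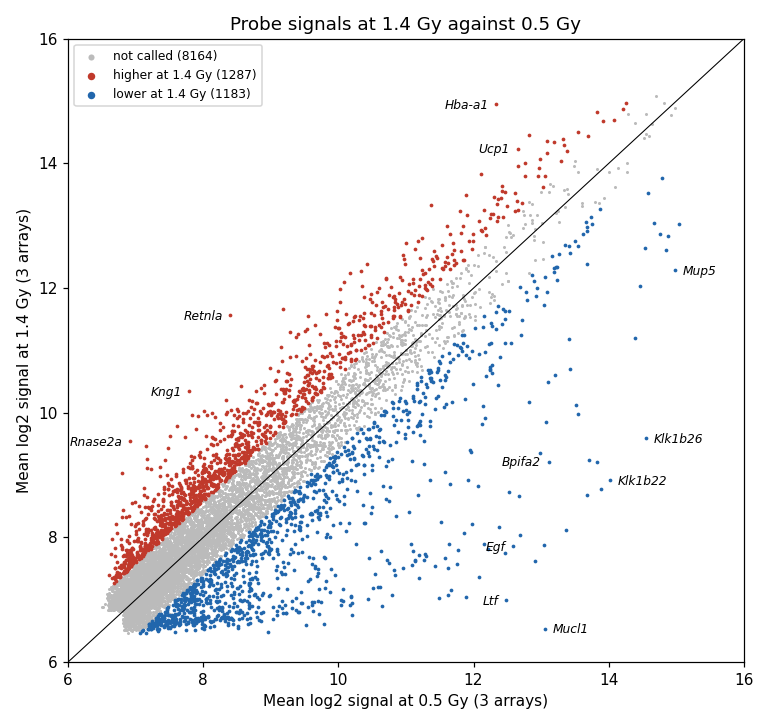
Mean log2 signal of each kept probe at 1.4 Gy (vertical axis) against 0.5 Gy (horizontal axis), each point the mean of 3 arrays, with called probes in red (1287 higher at 1.4 Gy) and blue (1183 lower) and the line of equal signal in black. The blue points reach far below the line, down to Mucl1 at 6.53 against 13.06, while the red points stay within a narrower band above it.

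The normalization bears on this comparison. The deposited normalized table was made in 2 sets, one holding the 6 arrays of 0.05 and 0.5 Gy and one the other 12, and the upper quartiles of the sets differ by 0.46 on the log2 scale. With those values the median difference over the kept probes became 0.49, and 4379 probes were called higher and 580 lower, so that 11.7% of calls were lower in place of 47.9%. Of the 1287 probes called higher, 0 had a negative difference with those values, and of the 1183 called lower, 15 had a positive one, of at most 0.0451. A call needs at least 1.5-fold, a larger step than the 0.446 by which the median moved. Few signs could therefore turn, and these counts are no support for the calls. The joint normalization takes a common shift out, but any difference in handling between the sets cannot be told apart from dose, because 1.4 and 0.5 Gy lie in different sets. Of the 1287 probes called higher, 435 (33.8%) had all 12 arrays of the one set above all 6 of the other, and of the 1183 called lower, 319 (27%) had the reverse. Over all kept probes these shares were 6.17% and 4.23%.

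Most called probes did not show this full separation of the sets, but a smaller shift between the sets was not tested. For many, the arrays of one of the 2 doses lay beyond all 15 other arrays. For 703 of the probes called lower (59.4%), the 3 arrays at 1.4 Gy lay below all 15 other arrays of the study. For 693 of those called higher (53.8%), the 3 arrays at 0.5 Gy lay below all 15 others. The arrays at 0.5 Gy were above all others for 527 of the lower probes (44.5%), and those at 1.4 Gy were above all others for 594 of the higher ones (46.2%). Over all kept probes, the 1.4 Gy arrays were below all others for 9.68% and above for 11.3%, and the 0.5 Gy arrays below for 8.98% and above for 8.25%. A probe can be in more than one of these counts. The called probes were chosen on these same values. Part of the excess over all kept probes therefore follows from that choice, here and for the sets above. A gene detected at one dose only could pass the filter only through the dose where it is higher. Counts over genes detected on all 6 arrays are therefore given for ion transport, keratins, regulated secretion and chemokines. Other lists hold such members without such a count. Detected on all 6 were 5 of 8 parotid genes, 7 of 10 potassium channels and 11 of 14 amino acid response genes. In DNA repair the figure was 9 of 12, and in the amino acid transporters 6 of 9.

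The largest group difference was in the kallikreins of the submandibular gland, secreted serine proteases that cut growth factor precursors and kininogen. All 13 kallikrein genes with a probe were kept, and all 13 were lower at 1.4 Gy, with a median log2 difference of -4.62 and a range from -5.25 to -1.61. The background for calls in this direction is 11.1%. Klk1b22 gave 8.98, 8.90 and 8.87 at 1.4 Gy and 14.01, 14.08 and 13.97 at 0.5 Gy, a difference of -5.10 ± 0.0756 (SE, adjusted p = 1.22e-29) or 34.3-fold. Klk1b8, Klk1b11 and Klk1b26 differed by -5.25, -5.11 and -4.96. Klk1b24, Klk1b9, Egfbp2, Klk1b21 and Klk1b16 differed by -4.85, -4.66, -4.62, -4.55 and -4.51. Klk1b1 was not detected on any array at 1.4 Gy and was at least 4.15-fold lower there. The smallest differences, between 3.06-fold and 4.04-fold, were in Klk1, Klk1b5 and Klk1b27, whose signals at 0.5 Gy lay near the top of the scale. Klk1b26 was also bright there, at 14.55 on average, but differed by -4.96. At 1.4 Gy, Klk1b5 and Klk1b27 averaged 12.64 and 13.02, and Klk1b26 averaged 9.59. Dimmer probes of Klk1b27 and Klk1b5 differed by far more, -5.16 and -4.40. The summed signal of the 13 genes ran from 25980 to 27390 at 1.4 Gy and from 177700 to 184300 at 0.5 Gy.

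The kallikreins are close paralogs, and the probes show how close. Probes of 6 of them come from the same part of the transcript and are shown because their shared letters limit how far each signal belongs to one gene. Each is 50 bases long, from the array's probe annotation, on chromosome 7. Capitals mark bases that differ from the Klk1b22 probe where the probes overlap, without gaps.
Klk1b22: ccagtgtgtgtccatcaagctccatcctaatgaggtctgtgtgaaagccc
Klk1b26: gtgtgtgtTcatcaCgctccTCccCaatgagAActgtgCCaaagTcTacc
Klk1b24: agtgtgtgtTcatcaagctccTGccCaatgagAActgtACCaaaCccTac
Klk1b8: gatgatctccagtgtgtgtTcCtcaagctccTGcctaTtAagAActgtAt
Klk1b21: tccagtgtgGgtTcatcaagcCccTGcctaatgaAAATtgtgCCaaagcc
Klk1b5: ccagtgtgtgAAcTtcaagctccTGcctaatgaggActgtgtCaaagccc

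The Klk1b5 probe shares 43 of 50 bases with that of Klk1b22, and the others share 36 of 47 (Klk1b26), 37 of 48 (Klk1b24), 33 of 42 (Klk1b8) and 38 of 49 (Klk1b21). Klk1b5, the one nearest in sequence, differed by -1.89 in log2 signal, and Klk1b22 by -5.10. The 6 probes thus gave differences from -5.25 to -1.89 despite their likeness, but all except that of Klk1b5 lay between -5.25 and -4.55. A second, dimmer probe of Klk1b5 differed by -4.40. How much each probe takes up RNA of its neighbours was not tested, and the 13 differences should not be read as 13 separate ones.

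**Figure D2:**
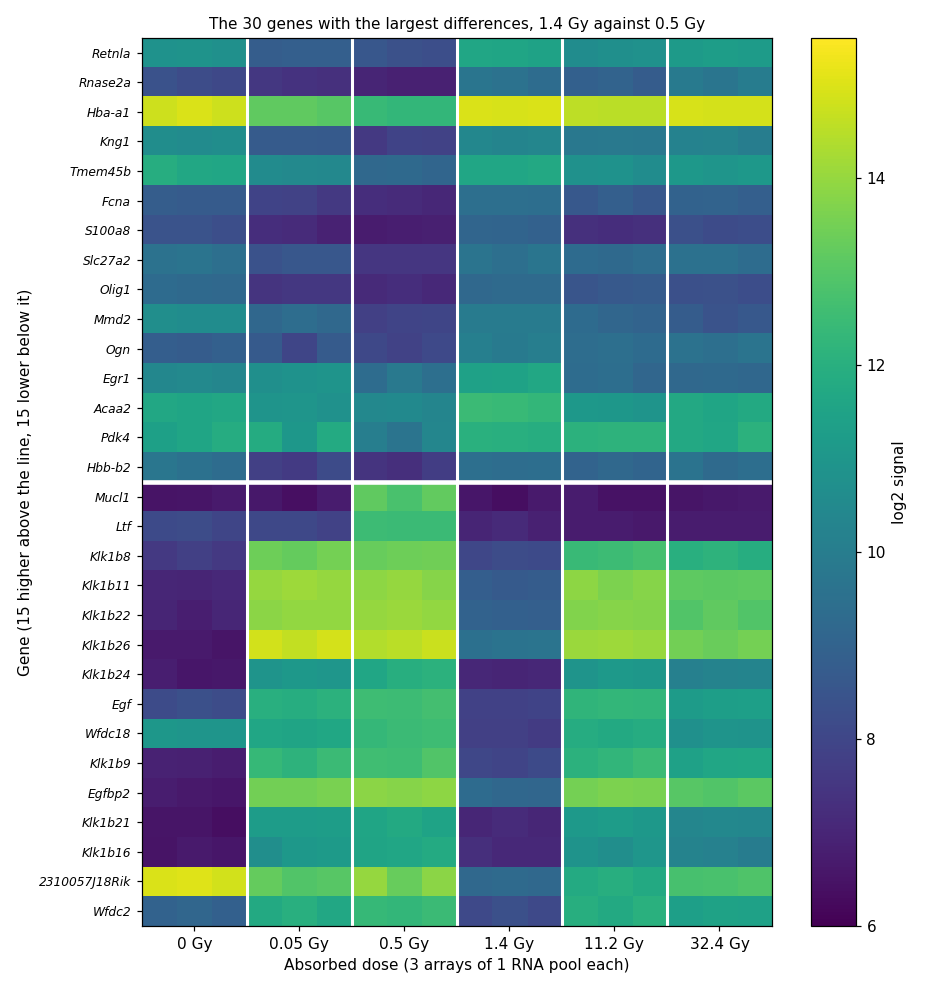
Log2 signal (colour) of the 15 genes with the largest higher and the 15 with the largest lower differences at 1.4 Gy, in rows, on the 18 arrays, in columns grouped by dose. The kallikreins are bright at 0.05, 0.5, 11.2 and 32.4 Gy and dark at 0 and 1.4 Gy, and Mucl1 is bright at 0.5 Gy alone, where its 3 arrays read 13.18, 12.79 and 13.20.

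The genes whose 0.5 Gy arrays stood furthest from every other array were Mucl1 and Ltf. Mucl1, a mucin-like secreted protein, was at 13.18, 12.79 and 13.20 at 0.5 Gy and at 6.58, 6.34 and 6.68 at 1.4 Gy, where no array detected it. It was at least 76.2-fold lower at 1.4 Gy (adjusted p = 3.1e-29), and its means at the other 4 doses lay between 6.56 and 6.61. Ltf, the iron-binding protein lactotransferrin of milk and saliva, was at 12.53, 12.46 and 12.46 at 0.5 Gy and at 6.99, 7.12 and 6.86 at 1.4 Gy, 45.1-fold lower. Its mean at 0 Gy was 8.11. A second Ltf probe, of low signal, differed by only -0.39. Lcn2, lipocalin 2, which binds bacterial iron carriers, was 9.54-fold lower at 1.4 Gy and was also highest at 0.5 Gy, with a mean of 10.17 against 7.91 or less at every other dose. For these 3 genes the 0.5 Gy arrays lay above all 15 others.

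Other secreted proteins of salivary glands divided. Of the 9 kept submandibular and sublingual products, 5 were lower at 1.4 Gy and 0 higher. Egf, epidermal growth factor, which the mouse submandibular gland stores in quantity, was at 7.84, 7.85 and 7.90 at 1.4 Gy and 12.56, 12.51 and 12.67 at 0.5 Gy, 26.3-fold lower. Mup5, a major urinary protein, was 6.46-fold lower, Smgc, a submandibular gland protein, 4.11-fold, and Mucl2 2.08-fold. The remaining 4, Prol1, Scgb1b27, Scgb2b26 and Scgb2b27, were not called and had means from 14.47 to 15.08 at both doses, near the top of the scale. The probes of Scgb1b27, a secretoglobin, disagreed: the brighter differed by 0.16 and the dimmer by -3.80. Wfdc18 and Wfdc2, of the whey acidic protein family, were 26.3-fold and 18.5-fold lower, and 2310057J18Rik, a transcript without a named function, 22.1-fold lower by its brighter probe, while its dim probe differed by -0.37.

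Of the 8 kept products of parotid and demilune cells, 3 were lower and 2 higher. Bpifa2, the parotid secretory protein, was at 9.28, 9.07 and 9.30 at 1.4 Gy against 13.16, 12.92 and 13.25 at 0.5 Gy, 14.9-fold lower. Lpo, the peroxidase of saliva, was 10.8-fold lower. Rnase1, a secreted ribonuclease, was detected on no array at 1.4 Gy and was at least 1.66-fold lower. The 2 amylases went the other way, with Amy1 1.97-fold higher (9.63, 9.80 and 9.65 against 8.84, 8.31 and 8.99) and Amy2a5 1.61-fold higher. Their signals at 0 Gy, 14.13 and 13.40 on average, lay above those at both doses.

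The machinery of salivary epithelium was lower at 1.4 Gy almost throughout. Among 14 kept genes of ion and water transport, 13 were lower and 0 higher, with a median of -2.08. Of the 8 that were detected on all 6 arrays, 8 were lower. Aqp5, the water channel of the acinar membrane, was at 7.46, 7.63 and 7.43 at 1.4 Gy and 11.52, 11.62 and 11.73 at 0.5 Gy, 17.4-fold lower (adjusted p = 2.13e-24). Fxyd2, a regulator of the sodium pump, and Atp1b1, its beta subunit, were 13.3-fold and 12.3-fold lower, although 1 of the 3 Fxyd2 probes, the dimmest, differed by only -0.12. Kcnk1, a potassium channel, was 8.2-fold lower. In the potassium channel list as a whole, 5 of 10 were lower, Kcnk1, Kcnn4 and Kcnk5 most of all, and 2 were higher, Kcnk3 and Kcnj8. A dimmer Kcnk5 probe differed by -0.52 and was not called. Of the subunits of the epithelial sodium channel, Scnn1b was 5.41-fold lower, and Scnn1a and Scnn1g, undetected at 1.4 Gy, were lower by at least 2.13-fold and 2.09-fold.

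Keratins and junction proteins gave the same direction. Of 14 kept, 11 were lower at 1.4 Gy and 1 higher, with a median of -2.44, and 7 were lower among the 8 detected on all 6 arrays. Krt8, a keratin of simple epithelia, was at 7.29, 7.37 and 7.39 at 1.4 Gy and 11.09, 11.15 and 11.35 at 0.5 Gy, 14.4-fold lower. Its partner Krt18 was 10.6-fold lower, Krt14, a keratin of basal and myoepithelial cells, 8.88-fold, and Elf5, an epithelial transcription factor, 9.59-fold. The single member that was higher was Gja1, connexin 43, which is also made by fibroblasts, muscle and fat. It read 12.56, 12.49 and 12.56 at 1.4 Gy and 11.03, 10.77 and 11.05 at 0.5 Gy. For the keratin list, 11 of the 14 genes had their 1.4 Gy arrays on one side of all 15 other arrays, and 10 had their 0.5 Gy arrays so. Over all kept probes the 1.4 Gy arrays were above all others for 11.3% and below for 9.68%.

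Genes of regulated secretion were lower in 9 of 12 cases and higher in 0, with a median of -1.39, and 7 of the 8 detected on all 6 arrays were lower. Bhlha15, the Mist1 factor that shapes the secretory apparatus of exocrine cells, was at 7.79, 7.87 and 7.71 at 1.4 Gy against 11.77, 11.64 and 11.89 at 0.5 Gy, 15.7-fold lower. Rab15, Unc13b and Rab27a, which act in vesicle traffic and priming, differed by -3.55, -2.85 and -2.25 in log2 signal. Bhlha15 was lower at 1.4 Gy than on each of the other 15 arrays, with means from 10.07 to 11.76 at the other 5 doses.

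**Figure D3:**
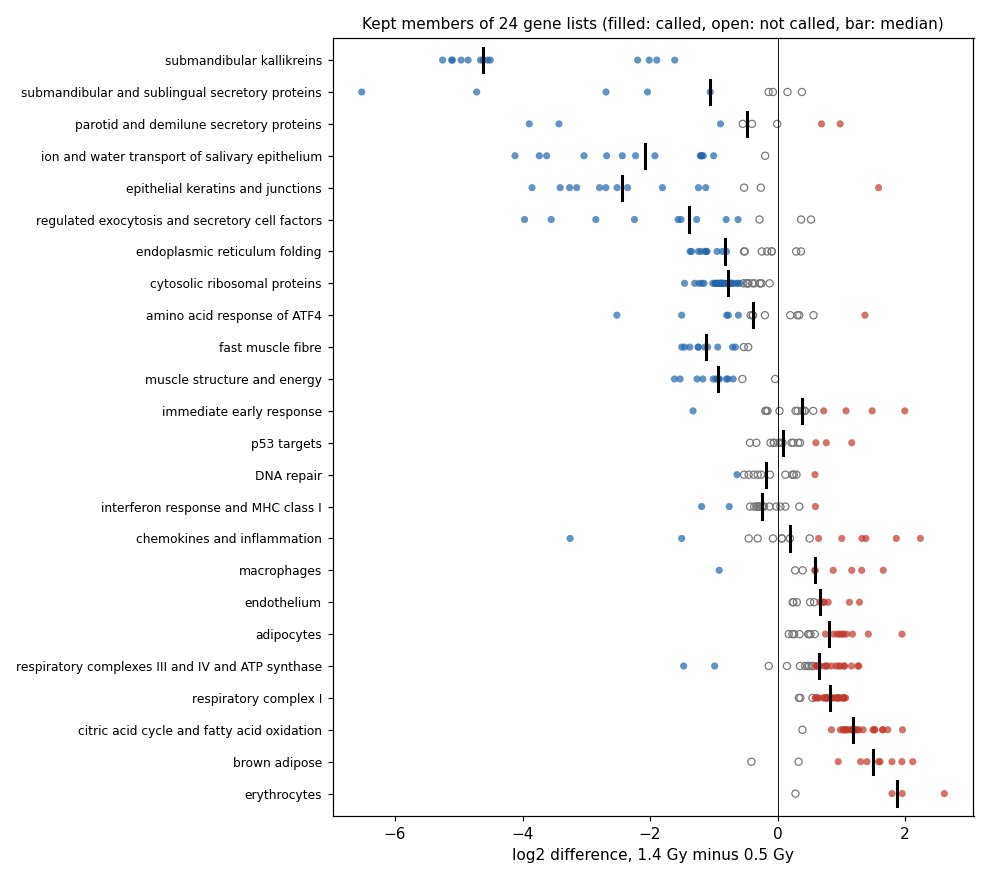
Log2 difference, 1.4 Gy minus 0.5 Gy (horizontal axis), of every kept member of 24 gene lists (rows), filled where the probe was called (red higher, blue lower), open where it was not, with a black bar at the list median. Medians run from -4.62 for the kallikreins to 1.88 for the red cell genes, and the mitochondrial lists lie on the right almost whole.

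Protein folding in the endoplasmic reticulum, on which secretory cells depend, was lower in part. Of 18 kept genes, 10 were lower and 0 higher, with a median of -0.83. Sec61a1, of the translocon through which new chains enter, was 2.59-fold lower, Herpud1, of the degradation complex, 2.55-fold, Sel1l 2.36-fold and Spcs3, of the signal peptidase, 2.3-fold. Herpud1 gave 11.19, 11.01 and 11.15 at 1.4 Gy and 12.54, 12.47 and 12.40 at 0.5 Gy. Hspa5, the master chaperone of this compartment, was near background at both doses and differed by -0.09. With the authors' normalized values 6 members were lower and 2 higher.

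Stress of this compartment is known to act through ER stress response elements, read by ATF6 and XBP1. Among the promoters of 18 folding genes (RefSeq, GRCm38.p6, of 22 with a probe), 8 held the element CCAAT and CCACG separated by 9 bases, on either strand within 250 bases before to 50 after the start, a share of 44.4% against 0.119% of all 32851 promoters. The related element, ATTGG and CCACG separated by 1 base, was in the Herpud1 promoter and in 0.0365% of all. These shares, and those of the elements searched in other lists below, describe the lists and not the difference between the doses. Of the 8 holders, Creld2, Dnajc3 and Syvn1 were lower, by 2.15-fold, 1.93-fold and 1.74-fold. Hsp90b1, Hspa5, Calr and Pdia6 differed by -0.53, -0.09, -0.16 and 0.37 and were not called, and Canx was not kept. The 250 bases before the start are shown for Creld2, chosen after its values were seen because it is called and holds the first element, and for Herpud1, with the element in capitals (in Creld2 it reads on the opposite strand).
Creld2, chr15:88819396-88819645, plus strand: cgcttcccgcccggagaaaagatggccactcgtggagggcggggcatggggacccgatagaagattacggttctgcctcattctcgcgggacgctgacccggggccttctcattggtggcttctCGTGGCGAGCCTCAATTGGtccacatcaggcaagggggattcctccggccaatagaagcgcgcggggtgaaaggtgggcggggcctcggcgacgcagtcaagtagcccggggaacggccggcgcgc
Herpud1, chr8:94386179-94386428, plus strand: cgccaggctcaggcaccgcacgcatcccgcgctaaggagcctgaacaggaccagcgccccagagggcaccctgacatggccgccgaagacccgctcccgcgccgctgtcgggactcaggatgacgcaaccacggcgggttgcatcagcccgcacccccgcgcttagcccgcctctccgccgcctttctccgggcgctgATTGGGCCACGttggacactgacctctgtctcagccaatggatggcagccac

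The amino acid response, which the factor ATF4 drives when amino acids run short, was lower in 5 of 14 kept genes and higher in 1. Slc7a5, which imports large neutral amino acids, gave 6.98, 6.93 and 6.91 at 1.4 Gy and 9.56, 9.44 and 9.38 at 0.5 Gy, 5.74-fold lower. Asns, asparagine synthetase, was 2.84-fold lower, and Psat1, of serine synthesis, 1.74-fold. Vldlr, a lipoprotein receptor, was 2.59-fold higher by its brightest probe, while its dimmest probes differed by 0.55 and 0.33 and were not called. Ddit3 and Atf4 themselves did not pass the test, with differences of 0.34 and -0.39. With the authors' values 2 were lower and 4 higher, and the median of the list relative to all probes was -0.49 in place of -0.43. The amino acid response element TGATGNAAN, searched on both strands, was in 5 of 15 promoters of this list, Aars, Asns, Chac1, Slc7a11 and Trib3, and in 3.95% of all. The Asns promoter is shown because it is the strongest called gene that holds it.
Asns, chr6:7693210-7693459, minus strand: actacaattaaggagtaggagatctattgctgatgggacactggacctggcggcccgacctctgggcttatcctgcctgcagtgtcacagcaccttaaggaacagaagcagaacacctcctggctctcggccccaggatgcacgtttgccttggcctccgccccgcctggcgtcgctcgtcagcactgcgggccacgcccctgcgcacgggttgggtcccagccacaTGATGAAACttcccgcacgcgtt

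Cytosolic ribosomal proteins were lower together. Of 43 kept, 32 were lower and 0 higher, with a median of -0.78 and a range from -1.46 to -0.12. Rpl12 gave 11.18, 11.32 and 11.23 at 1.4 Gy and 12.59, 12.78 and 12.74 at 0.5 Gy. Rpl10, Rps26 and Rps16 differed by -1.30, -1.23 and -1.19. The differences were small and hung on the scale: with the authors' values 6 of the 43 were called lower, although the median of the list relative to all probes, -0.82 here, was -0.81 there. For 22 of the 43, the arrays of the 2 normalization sets did not overlap. A second probe of Rps19, much dimmer, was called higher by 0.70.

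Skeletal muscle genes were lower at 1.4 Gy in the fast fibre program. Of 12 kept fast fibre genes, 10 were lower and 0 higher, with a median of -1.12, and of 14 genes of muscle structure and energy, 12 were lower. Atp2a1, the calcium pump of fast fibres, gave 10.28, 10.16 and 10.10 at 1.4 Gy and 11.63, 11.70 and 11.72 at 0.5 Gy, 2.84-fold lower. Troponin C (Tnnc2) was 2.75-fold lower, troponin I (Tnni2) 2.6-fold and the fast myosin Myh4 2.37-fold. Ttn, titin, was 3.07-fold and Acta1, skeletal actin, 2.89-fold lower. Of 10 slow fibre genes with a probe, 3 were kept (Tnnt1, Atp2a2 and Tpm3), with differences from -0.08 to 0.14, none past the test in limma and 0 at an unadjusted p under 0.05. The summed signal of the fast genes was 9952 to 10630 at 1.4 Gy and 20700 to 22090 at 0.5 Gy. Neither dose was extreme for these genes: Atp2a1 averaged 8.50 at 0 Gy and 12.06 at 32.4 Gy. With the authors' values the called members fell to 5 of the fast genes and 3 of the structural genes.

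**Figure D4:**
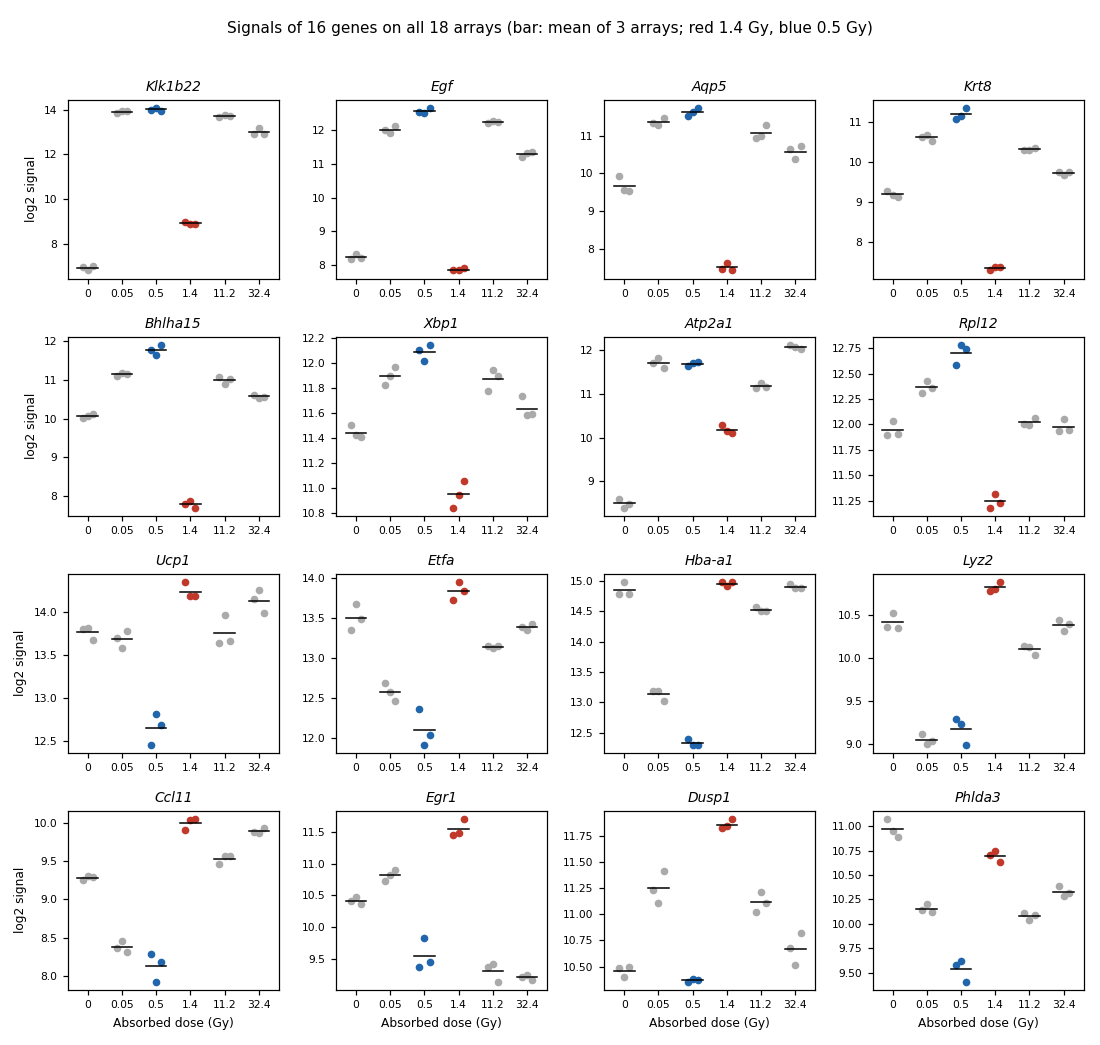
Log2 signal on each of the 18 arrays (points) and the mean of 3 arrays (bars) for 16 genes against absorbed dose in Gy, with 1.4 Gy in red, 0.5 Gy in blue and other doses in grey, and with vertical axes that differ between panels and do not start at 0. In Bhlha15 and Krt8 the red points lie below all others, in Ucp1 and Phlda3 the blue points lie below all others, and Klk1b22 is low at 1.4 Gy (8.92 on average) and at 0 Gy (6.94).

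On the higher side, genes of oxidative metabolism were higher in nearly every case. Of 24 kept genes of the citric acid cycle and fatty acid oxidation, 23 were higher at 1.4 Gy and 0 lower, with a median of 1.19, against a background of 12.1% for calls in this direction. Etfa, which passes electrons from fatty acid oxidation to the respiratory chain, gave 13.72, 13.94 and 13.83 at 1.4 Gy and 12.36, 11.92 and 12.04 at 0.5 Gy, 3.31-fold higher (adjusted p = 4.91e-16). Its other probes were called higher by less, at 0.79, 0.90 and 1.44 in log2 signal. Acaa2, the thiolase of the last step, was 3.89-fold higher, Acadm, the medium-chain dehydrogenase, 3.13-fold, and Etfdh 3.15-fold by its brighter probe, while its dim probe differed by 0.53 and was not called. For 22 of the 24 genes the 0.5 Gy arrays lay below all 15 others (8.98% of all kept probes), and for 13 the 2 normalization sets did not overlap.

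The respiratory chain followed. Of 29 kept genes of complex I, 26 were higher and 0 lower, with a median of 0.82, led by Ndufa10, Ndufb3, Ndufb8 and Ndufb7 at 1.07, 1.05, 1.04 and 1.03. Of 27 kept genes of complexes III and IV and ATP synthase, 17 were higher and 2 lower. Cox6b1 differed by 1.28 and Uqcrb by 1.26. The 2 that were lower were Atp5g1 (-1.47), a carrier of the rotor ring, and Atp5j (-0.99), of the stalk. The probes of Atp5j disagreed in sign, the dimmer being called higher by 0.80. Without array 2 of 0.5 Gy, Uqcrb lost its call at a difference of 0.81.

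Brown fat genes were higher in 8 of 10 cases and lower in 0, with a median of 1.49. Ucp1, the uncoupling protein that defines this tissue, gave 14.35, 14.18 and 14.18 at 1.4 Gy and 12.46, 12.81 and 12.69 at 0.5 Gy, 3-fold higher. Slc27a2, a fatty acid transporter and acyl-CoA synthetase, was 4.35-fold higher, Cox7a1 3.87-fold, Cpt1b, which carries fatty acids into mitochondria, 3.47-fold and Cidea, a lipid droplet protein, 3.05-fold. Ppargc1a, the coactivator that drives this program in the cold, differed by -0.41 and was not called. The summed signal of the 10 genes was 63140 to 70610 at 1.4 Gy and 21970 to 25000 at 0.5 Gy, and for 8 of the 10 the 0.5 Gy arrays were below all 15 others (8.98% of all kept probes). The oxidative genes are abundant in brown fat, and the part of this tissue in their difference was not tested. Other promoter elements were searched and had few or no holders. The ERR element was in 1 of 21 promoters of the citric acid cycle and fatty acid oxidation list (Sdhd). It was in 0 of 27 of complex I and 0 of 10 of brown fat, against 1.28% of all. The DR1 element was in 0 of 21 of the citric acid cycle list and in 0.381% of all. The E-box searched was in 0 of 9 promoters of the regulated secretion list and in 3.91% of all.

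General adipocyte genes were higher in 10 of 18 cases and lower in 0, with a median of 0.81, and 17 were higher with the authors' values. Gpd1, glycerol phosphate dehydrogenase, was 3.87-fold higher, Pparg, the adipocyte nuclear receptor, 2.68-fold, Cebpa 2.26-fold and Pnpla2, a lipase, 2.12-fold. Lep was 2.05-fold higher (9.62, 9.67 and 9.77 against 8.66, 8.78 and 8.50), while Adipoq was at 13.05, 13.21 and 13.26 against 12.85, 12.88 and 13.10 and was not called. Genes of glucose use moved with them. Of 11 kept genes of glycolysis and hypoxia, 6 were higher and 0 lower, with Hk2 2.96-fold and Pkm 2.26-fold higher, and the insulin-regulated glucose transporter Slc2a4 was 2.61-fold higher. It was 1 of 3 higher members among 12 of insulin signalling (25%, against 12.1% of all probes), with Akt2 and Irs2, and 0 were lower. Pdk4, which turns fuel use from glucose to fat, ran from 11.93 to 12.01 at 1.4 Gy and from 9.67 to 10.36 at 0.5 Gy, 3.88-fold higher. It was the 1 higher member among 11 genes of the glucocorticoid response, of which Per1 was lower and 9 were not called. The share was 9.09% each way, against 12.1% of all probes higher and 11.1% lower. In the antioxidant list 4 of 12 were higher, Gsta4, Sod2, Sod1 and Gpx3, and 0 lower. The call of Gpx3 was lost without array 1 of 1.4 Gy (0.58) and that of Sod1 without array 3 of 0.5 Gy (0.53), and both with only the 6 arrays normalized. In cholesterol synthesis 2 of 13 were higher, Nsdhl and Hsd17b7, and 0 lower, a share of 15.4% near the 12.1% of all probes. Probes disagreed for Insig1, where the given probe differed by 0.01 and the other 2 were called at 1.52 and 1.64, and for Sqle, with 0.52 and a called dimmer probe at 0.67. With the authors' values the higher members numbered 10 in glycolysis, 5 in insulin signalling, 6 in the glucocorticoid response, and 10 each in the antioxidant and cholesterol lists.

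Red cell genes were higher in 3 of 4 cases. Hba-a1, alpha globin, gave 14.98, 14.91 and 14.98 at 1.4 Gy and 12.40, 12.31 and 12.31 at 0.5 Gy, 6.13-fold higher, and Hbb-b2, a beta globin, was 3.88-fold higher. Alas2, the haem synthesis enzyme of red cell precursors, was 3.47-fold higher. For 3 of the 4 genes the 2 normalization sets did not overlap. Endothelial genes were higher in 6 of 11 cases and lower in 0, with a median of 0.67, and 11 were higher with the authors' values. Tek, the angiopoietin receptor, was 2.44-fold higher, Egfl7 2.19-fold, and Pecam1 1.59-fold by the brighter of its 2 probes, while Cdh5 differed by 0.51 and was not called.

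The largest difference on the higher side was in Retnla, a resistin-like protein secreted by macrophages and fat. It gave 11.62, 11.60 and 11.47 at 1.4 Gy and 8.56, 8.34 and 8.29 at 0.5 Gy, 8.97-fold higher (adjusted p = 5.33e-25). Rnase2a, an eosinophil ribonuclease, was 6.18-fold higher, and Fcna, ficolin A, a lectin of complement made by macrophages, 4.96-fold. Of the 15 genes with the largest higher differences, 11 were higher on all 12 arrays of the one normalization set than on all 6 of the other, the exceptions being Mmd2, Egr1, Acaa2 and Pdk4. Kng1, kininogen, the precursor of bradykinin on which tissue kallikrein acts, was 5.86-fold higher by its brighter probe, and its dim probe differed by 0.52. The other genes among the 15 largest were Tmem45b (5.58-fold), Olig1, a neural transcription factor (4.26-fold), Mmd2 (4.11-fold) and Ogn, a proteoglycan of the matrix (4.05-fold by the brightest of 3 probes).

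Macrophage genes were higher in 6 of 9 cases and lower in 1, with a median of 0.59. Lyz2, lysozyme, gave 10.78, 10.81 and 10.89 at 1.4 Gy and 9.28, 9.23 and 8.99 at 0.5 Gy, 3.16-fold higher. Mrc1, the mannose receptor, was 2.5-fold higher and Lyz1 2.24-fold. Cd14, the coreceptor for endotoxin, was 1.89-fold lower. The calls of C1qb and C1qc, at 0.59 each, lay at the threshold of 1.5-fold and were lost when single arrays were left out. Of 6 kept MHC class II genes, 0 were called, because their differences, from 0.22 to 0.45, lay below 1.5-fold. All 6 were higher at an unadjusted p under 0.05 in limma. With no minimum fold 5 were called, and with the authors' values 6. The dimmest of 3 H2-Ab1 probes was called higher, at 0.89. Genes of fibroblasts and matrix were higher in 3 of 11 cases (27.3%, against 12.1% of all probes), Mfap5, Lum and Tnxb. This count was 5 without array 1 or array 2 of 1.4 Gy, 6 without array 1 of 0.5 Gy and 9 with the authors' values.

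Chemokines and other mediators of inflammation divided, with 6 of 15 higher and 2 lower, and 3 higher among the 9 detected on all 6 arrays. S100a8, a calcium-binding protein of neutrophils, gave 9.09, 9.04 and 8.97 at 1.4 Gy and 6.74, 6.81 and 6.83 at 0.5 Gy, 4.73-fold higher. Its partner S100a9 was undetected at 0.5 Gy and at least 2.26-fold higher. Ccl11, eotaxin, which draws eosinophils, was 3.64-fold higher (9.91, 10.03 and 10.05 against 8.29, 7.93 and 8.19), and Ccl9 2.61-fold. The 2 that were lower were Lcn2 and Cxcl14, a chemokine of epithelia, at 2.84-fold by its brighter probe. Ccl2, Cxcl10, Il6 and Tnf were detected on 0 of 18 arrays. In the interferon list 2 of 17 (11.8%, near the 11.1% of all probes) were lower, Oasl2 (2.28-fold) and Ifi27l2a (1.69-fold), and 1 was higher, Irf1 (1.51-fold), whose call was lost without array 1 or array 3 of 1.4 Gy. Dimmer Irf1 probes differed by 0.36, 0.26 and 0.40 and were not called.

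Radiation-linked lists changed in few members. Of 15 kept p53 targets, 3 were higher at 1.4 Gy (20% against 12.1% of all probes) and 0 lower, with a median of 0.08. Phlda3, which restrains Akt signalling, gave 10.71, 10.75 and 10.64 at 1.4 Gy and 9.57, 9.62 and 9.41 at 0.5 Gy, 2.24-fold higher. Cdkn1a, the p21 inhibitor of the cell cycle, was 1.7-fold higher by the brightest of 3 probes and Fas, a death receptor, 1.52-fold by the brighter of 2. The call of Fas was lost without array 2 of either dose. For both Phlda3 and Cdkn1a the mean at 0.5 Gy was the lowest of the 6 doses, 9.53 and 7.62, and the mean of Phlda3 at 0 Gy, 10.97, was above that at 1.4 Gy. Mdm2, Ccng1 and Ddb2 differed by -0.06, 0.22 and -0.11 and were not called. Under the authors' values 8 members were higher.

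Of 12 kept DNA repair genes, Fen1, the flap endonuclease, was 1.55-fold lower and Xrcc6, the Ku70 subunit of end joining, 1.5-fold higher. The share was 8.33% each way, below the 12.1% of all probes higher and 11.1% lower. The calls of Fen1 and Xrcc6 sat at the threshold. Fen1 lost its call without array 1 of 0.5 Gy (-0.58), and Xrcc6 without array 1 of 1.4 Gy (0.58) or array 1 of 0.5 Gy (0.50). Dimmer Xrcc6 probes differed by 0.37 and 0.28 and were not called. In the authors' normalized values 4 repair genes were higher and 0 lower. Of 7 kept genes of the cell cycle and replication, 1 was lower (14.3%, near the 11.1% of all probes), and 2 without array 2 of 0.5 Gy. It was Ccnd1, cyclin D1, at 8.27, 8.20 and 8.20 at 1.4 Gy and 10.39, 10.37 and 10.43 at 0.5 Gy, 4.51-fold lower. Top2a, Cdk1, Ccna2 and Ccnb2, which mark dividing cells, were detected on 0 of 18 arrays. In the heat shock list 15.4% were called each way, near the shares of all probes. Of 13, 2 were higher, Hspd1 (1.71-fold) and Hspe1 (1.63-fold), the chaperonin pair of mitochondria, and 2 lower, Fkbp4 (2.09-fold) and Cryab (1.72-fold). The higher count was 4 without array 3 of 0.5 Gy, and with the authors' values 7 were higher and 0 lower.

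Immediate early genes, which cells switch on within minutes of a stimulus, were higher in 4 of 15 cases and lower in 1, with a median of 0.39. The share higher was 26.7%, against 12.1% of all probes. Egr1, a zinc finger factor, gave 11.45, 11.49 and 11.71 at 1.4 Gy and 9.37, 9.83 and 9.45 at 0.5 Gy, 3.99-fold higher (adjusted p = 2.82e-17). Dusp1, the phosphatase that ends MAP kinase signalling, gave 11.82, 11.84 and 11.91 against 10.36, 10.38 and 10.38, 2.8-fold higher. Klf2 was 2.11-fold and Fos 1.65-fold higher, and Ccn2, a matrix factor of TGF-beta and YAP signalling, 2.51-fold lower. Egr1, Dusp1 and Fos each had their highest mean of the 6 doses at 1.4 Gy, while Ccn2 had its highest at 0.5 Gy. Jun, Junb and Ier3 differed by -0.19, -0.18 and 0.03 and were not called, and Nr4a1, Fosb and Myc were undetected on all 18 arrays. The count of higher members was 11 with the authors' values.

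The cyclic AMP response element TGACGTCA, which is its own reverse complement, was in 2 of 17 promoters of the immediate early list, Btg2 and Dusp1, and in 1.79% of all. The Dusp1 promoter is shown because Dusp1 is the called member that holds it, while Btg2 was detected on 0 of 18 arrays.
Dusp1, chr17:26508473-26508722, minus strand: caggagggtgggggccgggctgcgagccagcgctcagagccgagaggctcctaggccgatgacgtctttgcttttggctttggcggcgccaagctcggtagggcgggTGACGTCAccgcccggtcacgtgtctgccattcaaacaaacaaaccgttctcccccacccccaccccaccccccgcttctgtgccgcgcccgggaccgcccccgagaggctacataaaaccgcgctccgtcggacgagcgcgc

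Clock genes were lower in 3 of 13 cases (23.1%, against 11.1% of all probes) and higher in 0, with a median of 0.01. Nfil3, a repressor at D-box elements, gave 8.04, 8.08 and 7.95 at 1.4 Gy and 9.60, 9.59 and 9.42 at 0.5 Gy, 2.86-fold lower. Per1, which stress hormones also induce, was 2.1-fold lower by the brighter of its 2 probes, and Dbp, an activator at D-box elements, 1.58-fold. Arntl, Clock and Nr1d1 differed by 0.15, 0.33 and -0.46 and did not pass. With the authors' values 1 was lower and 5 higher. All animals were killed at 24 h, and the clock time at which each pool was taken is not given in the sources used here. Of 9 kept amino acid transporters, Slc6a6, the taurine transporter, and Slc1a3, a glutamate transporter, were higher, and Slc6a9, a glycine transporter, was lower by 2.23-fold. The shares, 22.2% higher and 11.1% lower, compare with 12.1% and 11.1% of all probes. The call of Slc1a3 was lost without array 2 of 0.5 Gy, and 5 transporters were higher with the authors' values. The 3 kept cartilage genes, Sox9, Col9a2 and Chad, were undetected at 1.4 Gy and passed the filter through 0.5 Gy alone, so their direction was fixed by the filter. Their differences were at least 2.45-fold, 1.42-fold and 1.22-fold, and Col2a1 and Acan, which define cartilage, were undetected on all 18 arrays.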

How the data were processed

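Thyroid RNA pools of 6 dose groups were each run on 3 Illumina MouseRef-8 arrays. The authors deposited raw probe intensity with a detection p-value for each array, and a normalized intensity table that they had quantile-normalized in 2 sets. BeadScan and BASE are named for the upstream steps. Here the raw intensities of all 18 arrays were log2-transformed and quantile-normalized together, with no background correction. Probes with a detection p-value under 0.01 on all 3 arrays of 1.4 or 0.5 Gy were kept. One mean per dose was fitted in limma 3.58.1 (R 4.3.3), so that the 6 doses shared one estimate of the spread, and 1.4 minus 0.5 Gy was tested with Benjamini-Hochberg adjustment over the 10634 kept probes. A call needed an adjusted p-value under 0.01 and at least 1.5-fold. The fit was tested on simulated arrays. The number of arrays limits the precision, and the median SE of a log2 difference was 0.0784.

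Of 25697 probes, 23978 had 1 gene symbol and 1719 none or several, and symbols were updated through Entrez IDs. A gene is given by its brightest probe over the 18 arrays. The text names the 15 genes with the largest differences each way and up to 4 called genes per list. Further genes given as values were chosen after their values were seen. For a gene detected on no array of a dose, the fold is a bound against the higher of its own signal and the lowest detected signal of each array. The members and the 46 lists were chosen with earlier results of these data known. A list is described by its counts and median beside those of all probes.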

Additional observations from a re-analysis of the deposited data

How the results depend on the processing

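The call was recomputed under 16 alternatives. The counts stayed within 1.5 times the 2470 called (1287 higher, 1183 lower) with 75th-percentile scaling, quantile normalization of the 6 arrays only, no detection filter, detection on all 6 arrays and a fit on the 6 arrays only. With the replicate block, 2471 probes were called, 1287 higher and 1184 lower, and no named gene changed its call. The deviations of arrays with the same replicate number correlated at 0.016, 0.0183 and 0.0926, and those with different numbers from -0.0667 to 0.0461. With 3 arrays per dose these values cannot settle whether the numbers pair the arrays. Leaving out 1 array gave 2476 to 2513 calls, 1286 to 1310 higher and 1184 to 1203 lower. With the authors' normalized values 4959 probes were called, 4379 higher and 580 lower, and the median of all probes moved by 0.446. All 1287 higher calls and 580 of the lower calls were shared with the joint normalization. The median moved up, so the sharing of the higher calls follows largely from that shift. The 75th-percentile scaling moved the median by -0.112. With normexp background correction 4456 probes were called, 2448 higher and 2008 lower (the cause was not tested). A minimum of 2-fold left 976 calls, 415 higher and 561 lower, and no minimum fold gave 5921, 3273 higher and 2648 lower. Of the 528 named or listed genes, 0 of those called changed sign under any alternative. Because a call needs at least 1.5-fold, shifts of the median like those above could turn few signs. BeadChip as a block was not run, because the files used here do not say which arrays shared a chip. Signals near background and near the top of the scale understate differences, and 1 pool per dose gives no spread between animals.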
